A study of Mus musculus with 6 samples.

Results

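The receptors for glutamate and GABA were examined in the brain of mice that carry a conditional deletion of Atg7. Their subunits were listed by name, as 40 genes: AMPA, kainate, NMDA, delta and metabotropic glutamate receptor subunits, and subunits of GABA-A and GABA-B receptors. For each gene the transcript cluster (the group of exon probes that the array reads as 1 transcript) that the annotation pairs with that symbol alone was taken, and the brightest one where there were several. In this way 37 of the 40 genes were measured, among 19700 genes of the whole array. Grin1, Grin3a and Gabrg1 had no cluster of their own and were not analysed here.

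RNA from 3 conditional knockout (cKO) and 3 wild type (WT) samples was hybridised on 6 Affymetrix mouse exon arrays. The cKO mice were Atg7f/f with a Cre transgene, the WT mice were Atg7+/+ with the same Cre transgene, and both groups were C57BL/6 mice at postnatal day 16. Atg7 is an enzyme that autophagy needs to conjugate its ubiquitin-like proteins to their targets. The sample titles name the driver NexCre, which recombines mainly in excitatory neurons of the cortex and hippocampus, whereas the study's methods name Nestin-Cre, which recombines in the neural lineage as a whole. The tissue is given as brain in the labels and as cerebral cortex in the methods. Nothing in these sources says that the arrays of a group came from separate mice, so that the p-values measure the spread between these arrays only. In a bulk sample, fewer cells of a type and less RNA per cell cannot be told apart.

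Atg7 itself, read on a cluster that the annotation also pairs with Camsap1, had log2 signals of 6.12, 6.03 and 5.90 in cKO and 6.58, 6.54 and 6.39 in WT, with no overlap (difference -0.48, SE 0.092). The 6 arrays correlated with each other at 0.980 to 0.990 over the 19700 genes. The array cKO 1 stood apart in its sex-linked transcripts, with Xist at 9.51 against 3.48 to 4.15 on the other 5 arrays. Its Y-linked signals were lower, at 2.90 for Eif2s3y, 3.96 for Kdm5d and 3.22 for Uty. On the other 5 arrays these ran from 5.50 to 5.84, 5.92 to 6.07 and 5.26 to 6.74. This is the pattern of female RNA on cKO 1 and of male RNA on the other 5, so that sex was not balanced between the groups. The arrays also differed in markers of the region sampled. The median of 6 thalamic markers, relative to the WT mean of each gene, was 0.50, -0.08 and -0.25 in cKO and -0.28, 0.49 and -0.22 in WT, and that of 7 striatal markers was -0.36, -1.12 and -0.35 in cKO and 0.59, -0.18 and -0.41 in WT. All 7 measured oligodendrocyte markers had a lower mean in cKO (median -0.28), and all 7 measured astrocyte markers had a higher one (median 0.10). The array medians of both lists overlapped between the groups. They were -0.01, -0.53 and -0.29 in cKO and 0.09, 0.10 and -0.19 in WT for oligodendrocyte markers. For astrocyte markers they were 0.27, 0.11 and 0.02 in cKO and -0.08, 0.03 and 0.06 in WT. The 9 cortical excitatory neuron markers, at percentiles 42.6 to 99.9 of all genes in signal, had array medians of -0.12 to 0.07 in cKO and -0.06 to 0.05 in WT. Of these 9, 6 had a lower mean in cKO, as did 52.5% of all genes, with a median difference of -0.08. In 2 of the 9 (22.2%) all cKO arrays lay below all WT arrays, against 4.24% of all genes. The part of these differences in the values of the receptor genes was not tested.

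Glutamate excites neurons through ion channels built from AMPA, kainate or NMDA subunits, and tunes them through the metabotropic receptors, which signal through G proteins. GABA inhibits neurons through the GABA-A receptors, which are chloride channels of mixed subunits, and through the GABA-B receptor, a G protein coupled pair. In the cortex of young mice the subunit makeup of the NMDA and GABA-A receptors is still changing, and receptors enter and leave the synapse by membrane traffic.

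The receptor genes were a bright set. Their mean signal lay between percentiles 8.09 and 99.9 of all genes (median 93.5), with 21 of the 37 genes at or above the 90th percentile and 7 below the 50th. Gabbr2, Grin2b, Gabra5, Gria1 and Gabbr1 were the brightest, and Gabra6 and Gabre the dimmest. Probes differ in brightness, so that this is an order of signal and not of mRNA copies. Within each class the order of the genes was the same in cKO and in WT, except that Gabrb1 was the fifth and Gabrg3 the fourth of the GABA-A genes in cKO, whereas Gabrb1 was the fourth and Gabrg3 the fifth in WT.

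No receptor gene passed the test between cKO and WT. With limma over all 19700 genes, the adjusted p was 1.0 for each of the 37, and no gene of the array reached an adjusted p of 0.05 (0.00% of genes). At an unadjusted p of 0.05, 2 of the 37 were lower in cKO (Grik3 and Gabra5) and 0 were higher, where 1.87% of all genes were lower and 2.09% higher. In 4 of the 37, or 10.8%, all cKO arrays lay below all WT arrays (Grik3, Grik4, Gabra5 and Gabrd), where 4.24% of all genes did so. In 0 of the 37 did all cKO arrays lie above all WT arrays, where 4.15% of all genes did so. The mean was lower in cKO in 28 of the 37 genes (75.7%) and higher in 9, against 52.5% lower of all genes and 55.4% of the genes above the median signal. The median difference of the receptor genes was -0.08, against -0.01 over all genes, whose 5th to 95th percentile ran from -0.23 to 0.22.

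**Figure D1:**
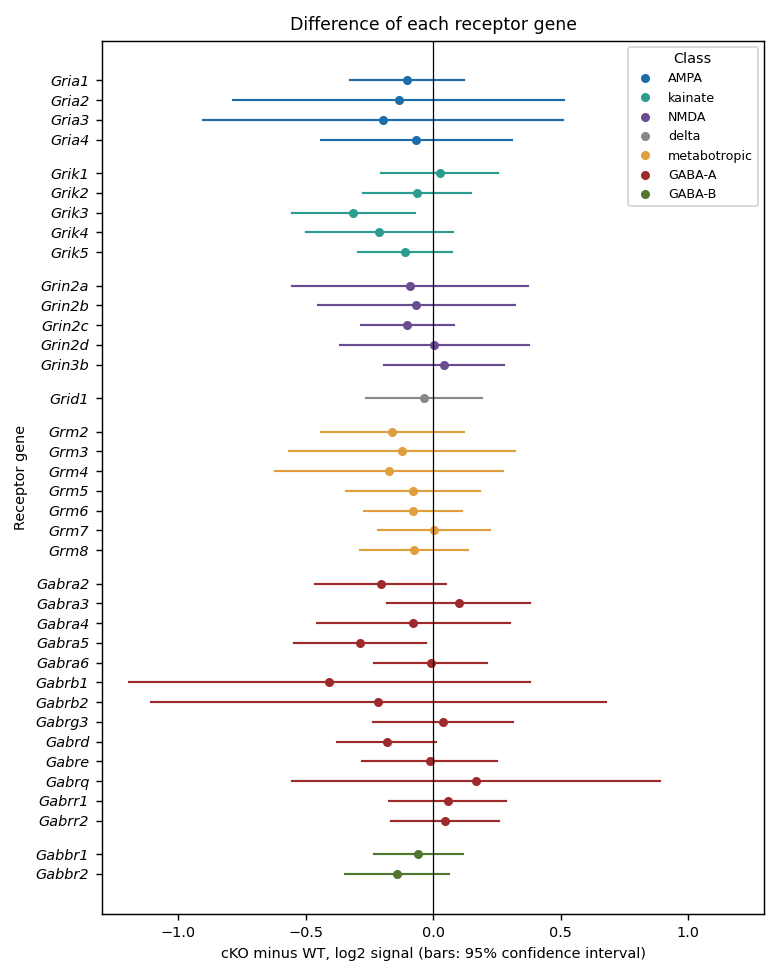
Difference in log2 signal, cKO minus WT, of each of the 37 receptor genes, coloured by class, with bars for the 95% confidence interval of the limma fit. Most points lie to the left of 0, from -0.41 for Gabrb1 to 0.17 for Gabrq, and the intervals of Grik3 and Gabra5 do not reach 0.

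The upstream sequences of 4 receptor genes show how unlike these promoters are. RefSeq (GRCm38.p6) windows were matched for 28 of the 37 genes, and for Gabrd, Gria1, Gria3, Grid1, Grik1, Grin2a, Grin2b, Grm4 and Grm5 none is shown. Grik3 and Gabra5 are the genes with the lowest p, Grik4 is the other kainate gene whose groups did not overlap, and Gabra6 is the dimmest of the set. Each line gives the 250 bases before the RefSeq start of the gene, 5′ to 3′ on its own strand, with CG dinucleotides in capitals. The windows are chr4:125490446-125490695 (plus strand) for Grik3, chr9:42944372-42944621 (minus strand) for Grik4, chr7:57510060-57510309 (minus strand) for Gabra5 and chr11:42321073-42321322 (minus strand) for Gabra6.
Grik3: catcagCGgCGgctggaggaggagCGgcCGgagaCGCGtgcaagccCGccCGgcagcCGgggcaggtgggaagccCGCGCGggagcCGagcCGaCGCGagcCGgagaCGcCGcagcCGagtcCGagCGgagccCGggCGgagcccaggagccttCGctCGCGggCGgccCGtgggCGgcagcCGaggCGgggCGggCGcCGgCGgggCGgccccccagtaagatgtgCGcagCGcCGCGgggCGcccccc
Grik4: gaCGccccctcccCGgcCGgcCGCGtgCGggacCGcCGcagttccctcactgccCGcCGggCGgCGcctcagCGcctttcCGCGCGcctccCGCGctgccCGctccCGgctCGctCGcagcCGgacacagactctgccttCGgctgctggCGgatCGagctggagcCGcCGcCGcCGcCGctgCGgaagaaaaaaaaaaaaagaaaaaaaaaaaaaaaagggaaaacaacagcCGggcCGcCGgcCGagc
Gabra5: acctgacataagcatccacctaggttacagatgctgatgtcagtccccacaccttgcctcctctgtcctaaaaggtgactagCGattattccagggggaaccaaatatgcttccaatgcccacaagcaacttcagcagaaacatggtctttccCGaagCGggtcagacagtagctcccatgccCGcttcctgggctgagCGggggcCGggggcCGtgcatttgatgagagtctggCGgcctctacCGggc
Gabra6: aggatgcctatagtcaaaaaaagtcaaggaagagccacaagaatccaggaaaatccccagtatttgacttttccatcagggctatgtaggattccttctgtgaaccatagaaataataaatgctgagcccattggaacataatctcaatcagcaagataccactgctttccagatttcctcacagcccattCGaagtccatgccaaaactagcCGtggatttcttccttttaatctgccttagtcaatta

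The Grik3 window held 42 CG dinucleotides at 82.0% G and C, and the Grik4 window 36 at 69.6%. The Gabra5 window held 9 at 56.4%, and the Gabra6 window 2 at 40.8%. Over 35 windows of the receptor genes the median was 9 CG dinucleotides, against 6 over 32851 windows of all genes, whose quartiles were 2 and 16. The GC box GGGCGG, searched on both strands, was in 18 of the 35 receptor windows (51.4%) and in 32.7% of all windows, and TATAAA, also on both strands, in 11.4% and 12.4%. Some genes have several windows, and a match is a description of these letters only.

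The 4 AMPA subunits, which form the fast excitatory channel, each had a lower mean in cKO, by a median of -0.12, and none passed the test. The AMPA median turned to 0.11 without cKO 1 and to 0.15 without cKO 1 and WT 2. Gria1, whose product is prominent in synaptic plasticity, had log2 signals of 9.26, 9.31 and 9.12 in cKO and 9.46, 9.29 and 9.25 in WT (difference -0.10, SE 0.094), so that the groups overlapped. Gria2, whose edited subunit keeps the channel nearly closed to calcium, had 8.24, 9.14 and 9.20 in cKO and 8.69, 9.08 and 9.21 in WT (difference -0.14, SE 0.27). Gria3, an X-linked subunit, had 7.66, 8.58 and 8.74 in cKO and 8.18, 8.60 and 8.80 in WT (difference -0.20, SE 0.30). In both genes the array cKO 1 was the lowest of the 6, and without it the differences turned to 0.17 for Gria2 and 0.14 for Gria3. Gria4 had 6.48, 6.93 and 6.92 in cKO and 6.61, 6.94 and 6.98 in WT, with the array numbered 1 lowest in each group, and its difference of -0.07 turned to 0.08 without cKO 1. Rorb, a marker of the middle cortical layer, had the same arrangement over the arrays, with 6.23, 8.0 and 8.19 in cKO and 6.76, 8.08 and 8.35 in WT, and its part in the AMPA values was not tested. Of the 9 cortical excitatory neuron markers, 4 had both arrays numbered 1 below the other 4 arrays, and the other 5, Slc17a7 and Neurod6 among them, did not.

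**Figure D2:**
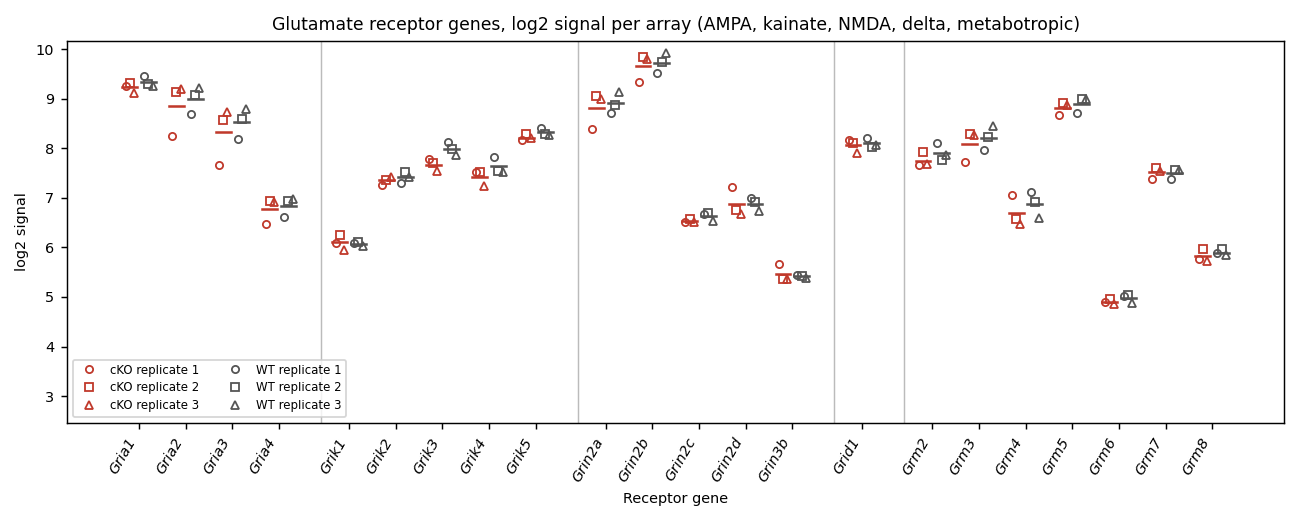
Log2 signal of each glutamate receptor gene on each of the 6 arrays, cKO in red to the left of WT in grey, with the group mean as a line. The circles, which are the arrays numbered 1, lie below the other arrays in Gria2, Gria3, Gria4, Grin2a and Grin2b, whereas all Grik3 points of cKO lie below those of WT.

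Among the 5 kainate subunits, whose channels act on both sides of the synapse, 4 had a lower mean in cKO and Grik1 a higher one, with a median of -0.11. Grik3, a low affinity subunit, had log2 signals of 7.78, 7.70 and 7.54 in cKO and 8.12, 7.99 and 7.86 in WT. Every cKO array was below every WT array, and the difference was -0.31 (SE 0.10, 95% confidence interval -0.55 to -0.07), a ratio of 0.805 of cKO to WT. The unadjusted p of limma was 0.0181 and the adjusted p was 1.0. A dimmer cluster of Grik3 had 7.44, 7.21 and 6.94 in cKO and 7.70, 7.42 and 7.46 in WT, with a similar difference of -0.33 (SE 0.15) but with groups that overlapped. Grik3 had a difference of -0.25 without cKO 3 and also without WT 1, where its unadjusted p was 0.0586 and 0.0623, and of -0.30 without both arrays numbered 1.

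Grik4, a high affinity subunit, had 7.52, 7.52 and 7.24 in cKO and 7.83, 7.55 and 7.53 in WT, again without overlap. Its difference was -0.21 (SE 0.12, unadjusted p = 0.127 with limma), and that of its dimmer cluster, whose groups overlapped, was -0.19. Without WT 1, which was the brightest of the 6, the Grik4 difference was -0.11. Grik5, the other high affinity subunit and the brightest of the class, had 8.17, 8.29 and 8.20 in cKO and 8.41, 8.30 and 8.28 in WT (difference -0.11, SE 0.078). Grik2 had 7.26, 7.37 and 7.43 in cKO and 7.30, 7.52 and 7.43 in WT, and Grik1 had 6.10, 6.26 and 5.94 in cKO and 6.08, 6.12 and 6.02 in WT. These last differences, -0.06 for Grik2 and 0.03 for Grik1, were smaller than the spread between arrays.

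The NMDA receptor, a channel that opens to calcium when glutamate and depolarisation coincide, was read by 5 of its 7 listed subunits. Of these, 3 had a lower and 2 a higher mean in cKO, with a median of -0.07, and the groups overlapped in all 5. Grin2b, the subunit that prevails in the immature forebrain, was the brightest, with 9.35, 9.84 and 9.81 in cKO and 9.52, 9.75 and 9.92 in WT (difference -0.07, SE 0.16). Grin2a, which joins the receptor as the cortex matures, had 8.40, 9.05 and 9.0 in cKO and 8.72, 8.87 and 9.14 in WT (difference -0.09, SE 0.20). In both genes the arrays numbered 1 were the lowest of their group, and without cKO 1 the differences turned to 0.09 for Grin2b and 0.12 for Grin2a. Grin2c, best known from the cerebellum, had 6.52, 6.58 and 6.51 in cKO and 6.68, 6.69 and 6.54 in WT (difference -0.10, SE 0.077). Grin2d had 7.22, 6.75 and 6.68 in cKO and 7.0, 6.91 and 6.73 in WT, with the highest value of each group on the array numbered 1. Grin3b, near the middle of all genes in signal, had 5.66, 5.37 and 5.36 in cKO and 5.45, 5.42 and 5.39 in WT. Grin2d and Grin3b differed by 0.00 and 0.04, and by -0.16 and -0.05 without cKO 1. Grid1, a delta subunit that links synapses through secreted cerebellins, had 8.17, 8.11 and 7.91 in cKO and 8.20, 8.03 and 8.06 in WT (difference -0.04, SE 0.097).

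The metabotropic receptors had a lower mean in cKO in 6 of 7 genes, by a median of -0.08, and the groups overlapped in all 7. Grm5, which couples to phospholipase C, was the brightest of the class, with 8.68, 8.91 and 8.87 in cKO and 8.72, 8.99 and 9.0 in WT (difference -0.08, SE 0.11). A dimmer cluster of Grm5 had 4.76, 6.34 and 6.29 in cKO and 6.05, 5.79 and 5.76 in WT (difference -0.07). There the array numbered 1 was the lowest in cKO but the highest in WT. Grm2 and Grm3 lower cyclic AMP and are the targets of the same group of agonists. Grm2 had 7.66, 7.92 and 7.68 in cKO and 8.11, 7.77 and 7.87 in WT (difference -0.16, SE 0.12). Grm3, which astrocytes also express, had 7.73, 8.29 and 8.27 in cKO and 7.97, 8.23 and 8.45 in WT (difference -0.12). Grm3 turned to 0.06 without cKO 1, and Grm2 was -0.06 without WT 1 and -0.02 without both arrays numbered 1. A dimmer cluster of Grm2 had a difference of 0.03. Of the presynaptic receptors, Grm4 had 7.05, 6.57 and 6.48 in cKO and 7.11, 6.92 and 6.60 in WT (difference -0.18), with the highest value of each group again on the array numbered 1. Grm7 had 7.39, 7.60 and 7.55 in cKO and 7.39, 7.57 and 7.57 in WT, a difference of 0.00. Its dimmer cluster, whose groups also overlapped, had a difference of -0.22. Grm8 had 5.76, 5.96 and 5.73 in cKO and 5.88, 5.96 and 5.84 in WT. Grm6, the receptor of retinal ON bipolar cells, was dim, with 4.89, 4.96 and 4.86 in cKO and 5.03, 5.04 and 4.87 in WT. Its mean signal was at percentile 34.1 of all genes.

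GABA-A subunits were measured by 13 of the 14 listed genes, of which 8 had a lower and 5 a higher mean in cKO, with a median of -0.01. Gabra5, an alpha subunit of receptors outside the synapse that is abundant in the hippocampus, had log2 signals of 8.98, 9.34 and 9.11 in cKO and 9.48, 9.35 and 9.46 in WT. The groups did not overlap, but cKO 2 lay next to WT 2, and the difference was -0.29 (SE 0.11, 95% confidence interval -0.55 to -0.03), a ratio of 0.819 of cKO to WT. Its unadjusted p with limma was 0.0340, and the adjusted p was 1.0. Without both arrays numbered 1 the difference was -0.18, with an unadjusted p of 0.175, and leaving out cKO 1, cKO 3, WT 1 or WT 3 also took the unadjusted p above 0.05, to 0.0838 to 0.0919. Gabrd, the delta subunit of receptors that carry tonic inhibition, had 6.60, 6.72 and 6.82 in cKO and 6.89, 6.86 and 6.94 in WT, also without overlap (difference -0.18, SE 0.082, unadjusted p = 0.0629 with limma). Gabra5 is the immediate neighbour of Gabrg3 on chromosome 7, with 0 protein-coding genes between them in the RefSeq order. Gabrg3 had 8.02, 8.41 and 8.37 in cKO and 8.21, 8.20 and 8.28 in WT, with groups that overlapped and a difference of 0.04.

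**Figure D3:**
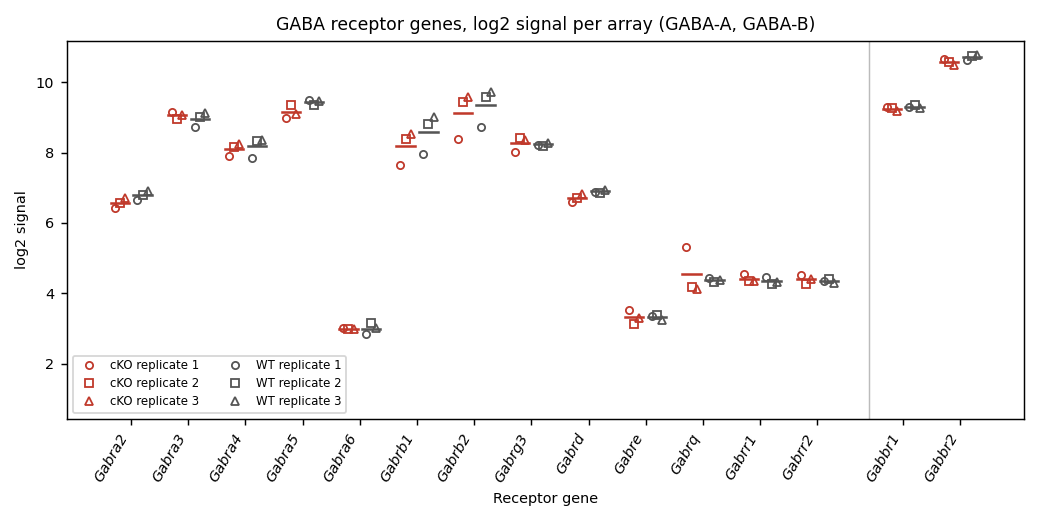
Log2 signal of each GABA receptor gene on each of the 6 arrays, cKO in red to the left of WT in grey, with the group mean as a line. The cKO points of Gabra5 and Gabrd lie below those of WT, the circles of Gabrb1 and Gabrb2 (the arrays numbered 1) lie below the rest in both groups, and Gabrq is high on cKO 1 alone.

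Gabra2, Gabra4 and Gabrb1 lie in this order on chromosome 5, with 1 other protein-coding gene between Gabra2 and Gabra4. Gabra2, a synaptic alpha subunit, had 6.44, 6.57 and 6.72 in cKO and 6.64, 6.80 and 6.92 in WT (difference -0.21, SE 0.11, unadjusted p = 0.10 with limma). Gabra4, which pairs with the delta subunit, had 7.91, 8.15 and 8.23 in cKO and 7.85, 8.32 and 8.36 in WT (difference -0.08). Gabrb1, a beta subunit, had 7.65, 8.38 and 8.53 in cKO and 7.95, 8.82 and 9.02 in WT, and with -0.41 (SE 0.33) had the lowest difference of the 37 genes. The array numbered 1 was the lowest of its group in all 3 of these genes. In Gabrb1 it differed from the mean of the other arrays of its group by -0.81 in cKO and by -0.97 in WT. Without both arrays numbered 1 the difference of Gabrb1 was -0.46, with an unadjusted p of 0.0106, while without cKO 1 alone it was -0.14, without WT 1 alone -0.73, and without cKO 1 and WT 2 -0.02.

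Gabrb2 and Gabra6 are neighbours on chromosome 11 and stood at opposite ends of the signal. Gabrb2, the beta subunit of many synaptic receptors, had 8.38, 9.43 and 9.58 in cKO and 8.73, 9.59 and 9.71 in WT (difference -0.21, SE 0.38), at percentile 99.0 of all genes. A dimmer cluster of Gabrb2 had 8.91, 8.97 and 8.98 in cKO and 8.72, 9.0 and 9.07 in WT (difference 0.02), and cKO 1 lay far below the rest of its group in the brighter cluster only. Gabra6, an alpha subunit of cerebellar granule cells, was the dimmest receptor gene, with 3.01, 2.98 and 2.98 in cKO and 2.84, 3.15 and 3.02 in WT.

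On the X chromosome Gabra3 lies between Gabre and Gabrq. Gabra3, an alpha subunit that is prominent in the young cortex, was bright, with 9.15, 8.96 and 9.07 in cKO and 8.74, 9.01 and 9.13 in WT (difference 0.10), whereas the dimmer cluster of the same gene had a difference of -0.14. Gabre was dim, with 3.52, 3.13 and 3.31 in cKO and 3.36, 3.38 and 3.25 in WT. Gabrq, the theta subunit, had 5.32, 4.19 and 4.12 in cKO and 4.43, 4.32 and 4.38 in WT. The highest difference of the 37 genes, 0.17 for Gabrq, rested on cKO 1, and without that array it turned to -0.22. That array also had the high Xist signal and high thalamic markers, and their part in the values of Gabrq, Gabre, Gabra3 and Gria3 was not tested. The rho subunits Gabrr1 and Gabrr2, neighbours on chromosome 4 and known from the retina, were both dim. Gabrr1 had 4.55, 4.34 and 4.34 in cKO and 4.48, 4.27 and 4.31 in WT, and Gabrr2 had 4.53, 4.28 and 4.40 in cKO and 4.36, 4.41 and 4.29 in WT.

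The GABA-B receptor needs both of its subunits, and both were among the brightest genes of the array. Gabbr1, which binds GABA, had 9.30, 9.27 and 9.18 in cKO and 9.30, 9.36 and 9.26 in WT (difference -0.06). Gabbr2, which couples to the G protein, had 10.67, 10.57 and 10.48 in cKO and 10.62, 10.74 and 10.78 in WT (difference -0.14, SE 0.086), at percentile 99.9. The groups overlapped in both genes. In Gabbr2 the overlap came from the arrays numbered 1, without which the difference was -0.23 with an unadjusted p of 0.0336.

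**Figure D4:**
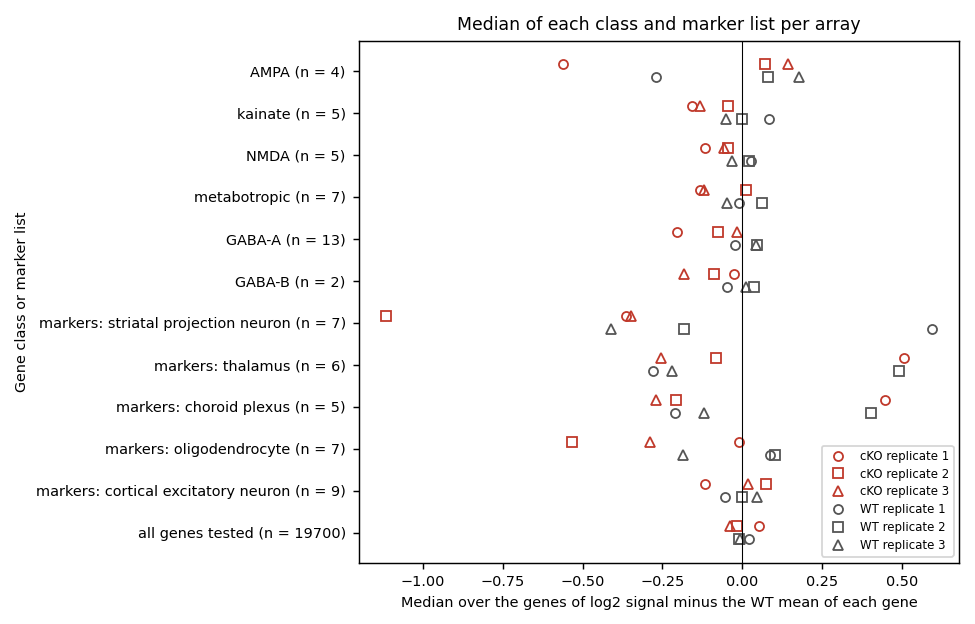
Median of each receptor class except delta on each of the 6 arrays, as log2 signal relative to the WT mean of each gene, with cKO drawn above WT, beside 5 marker lists and all genes. The AMPA median was -0.56 on cKO 1 and -0.27 on WT 1 and lay between 0.07 and 0.18 on the other 4 arrays.

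The arrays numbered 1 stood apart from the others in many receptor genes of both groups. In 12 of the 37 receptor genes (32.4%) both of these arrays lay below the other 4, against 10.2% of all genes, and in 6 (16.2%) both lay above, against 23.4% of all genes. The 12 genes were Gria2, Gria3, Gria4, Grik2, Grin2a, Grin2b, Grm3, Grm5, Grm7, Gabra4, Gabrb1 and Gabrb2. The 6 genes were Grin2d, Grin3b, Grid1, Grm4, Gabrq and Gabrr1. In Gabrb2 the array numbered 1 differed from the mean of the other arrays of its group by -1.12 in cKO and -0.92 in WT, and in Gria3 by -1.0 in cKO and -0.52 in WT. The labels do not say what the shared number stands for. Without both arrays numbered 1, 15 of the 37 genes were lower in cKO with no overlap (40.5%) and 2 were higher, where 22.7% of all genes were lower and 15.0% higher. Of the 37 genes, 31 then had a lower mean in cKO (83.8%), against 57.4% of all genes. Without cKO 1 and WT 2, the arrays with the highest thalamic markers, 21 of the 37 had a lower mean in cKO (56.8%), against 60.6% of all genes. In that comparison 8 of the 37 (21.6%) were lower in cKO without overlap, against 25.6% of all genes.

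**Figure D5:**
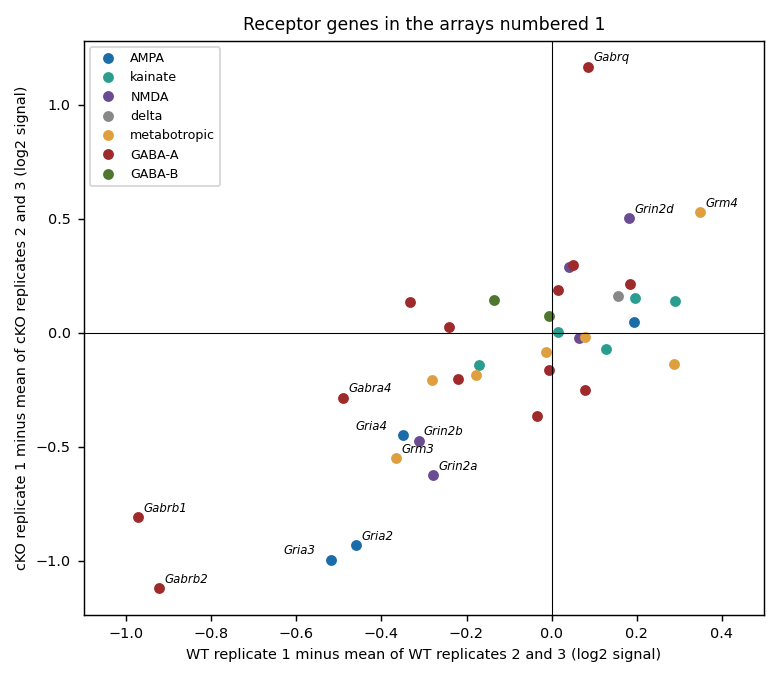
Log2 signal of the array numbered 1 minus the mean of the other arrays of its group, for each receptor gene, in cKO on one axis and in WT on the other. Gabrb2, Gabrb1, Gria3 and Gria2 lie far to the negative side on both axes, and Gabrq is high in cKO alone.

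The proteins that work with these receptors were listed apart. Of 13 auxiliary subunits of AMPA and kainate receptors, 10 had a lower mean in cKO (76.9%) and 3 a higher one (median -0.14). The mean was lower in 52.5% of all genes and in 55.4% of the genes above the median signal. At an unadjusted p of 0.05, 1 was lower and 1 higher, where 1.87% of all genes were lower and 2.09% higher. After adjustment 0 passed. In 4 of the 13 (30.8%) all cKO arrays lay below all WT arrays, against 4.24% of all genes, and in 1 they lay above, against 4.15%. Cnih3, a cornichon that helps AMPA receptors to the surface, had 8.24, 8.28 and 8.12 in cKO and 8.49, 8.32 and 8.43 in WT (difference -0.20, SE 0.083, unadjusted p = 0.0498 with limma). Cacng7, one of the transmembrane AMPA receptor regulatory proteins, had 9.34, 9.44 and 9.47 in cKO and 9.27, 9.20 and 9.12 in WT (difference 0.22, SE 0.079, unadjusted p = 0.0275 with limma). Neto1, which binds kainate receptors, had 8.56, 9.18 and 9.11 in cKO and 9.32, 9.32 and 9.33 in WT, below WT on every cKO array but mostly so on cKO 1 (difference -0.37). Shisa6, which keeps AMPA receptors at the synapse, had 8.37, 7.90 and 7.65 in cKO and 8.56, 8.25 and 8.28 in WT (difference -0.39), with groups that overlapped.

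Of 22 measured excitatory scaffold and kinase genes, 17 had a lower mean in cKO (77.3%, against 52.5% of all genes), with a median of -0.07. At an unadjusted p of 0.05, 1 was lower (4.55%, against 1.87% of all genes) and 0 were higher, against 2.09% of all genes. In 3 of the 22 (13.6%) the cKO arrays all lay below WT, against 4.24% of all genes. In 0 of the 22 they lay above, against 4.15%. The 1 gene under the unadjusted threshold was Shank3, a scaffold of the postsynaptic density. It had 7.18, 7.15 and 7.14 in cKO and 7.46, 7.38 and 7.43 in WT. The Shank3 groups were well apart (difference -0.27, SE 0.068, unadjusted p = 0.00564 with limma), and its adjusted p was 1.0. Dlgap3, which ties the PSD-95 family to the Shank proteins, had a difference of -0.16 without overlap, Grip1, which binds AMPA subunits, one of -0.14 with overlap, and Shank1 one of -0.09 without overlap.

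On the inhibitory side, 14 measured scaffold and partner genes divided into 7 higher and 7 lower in cKO (median 0.00). Of these, 0 had an unadjusted p under 0.05, where 1.87% of all genes were lower and 2.09% higher. In 2 of the 14 (14.3%), Kctd12 and Lhfpl4, all cKO arrays lay below all WT arrays, against 4.24% of all genes. In 0 of the 14 they lay above, against 4.15%. Gabarapl1, an Atg8 family protein that belongs both to autophagy and to GABA-A receptor traffic, had 10.08, 9.93 and 9.78 in cKO and 9.78, 9.74 and 9.78 in WT (difference 0.16, SE 0.094). The groups met at the lowest cKO array. Slitrk3, an adhesion protein of inhibitory synapses, had a difference of 0.13, Kctd12, an auxiliary protein of GABA-B receptors, one of -0.14, and Lhfpl4, which anchors GABA-A receptors, one of -0.10.

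Of 14 measured genes of transmitter synthesis, transport and breakdown, 7 had a higher and 7 a lower mean in cKO (median -0.01). An unadjusted p under 0.05 was reached by 0 of them, where 1.87% of all genes were lower and 2.09% higher. In 1 of the 14 (7.14%) all cKO arrays lay below all WT arrays, against 4.24% of all genes. In 0 of the 14 they lay above, against 4.15%. Slc32a1, the vesicular GABA transporter, had 7.41, 7.20 and 7.05 in cKO and 7.79, 7.46 and 7.35 in WT (difference -0.31, SE 0.14). Slc17a7, the main vesicular glutamate transporter of the cortex, had 10.59, 10.84 and 10.65 in cKO and 10.99, 10.79 and 10.93 in WT (difference -0.21, SE 0.097). The groups overlapped in both transporters. Slc6a13, a GABA transporter, and Slc1a6, a glutamate transporter known from Purkinje cells, had differences of 0.22 and 0.16.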

How the data were processed

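The authors hybridised total RNA of 3 cKO and 3 WT samples on mouse exon arrays and deposited log2 signals of 101175 transcript clusters, and the methods name GeneSpring as the software. For the summarisation of probes, the normalization and the genome build, the method was not given in the sources used here. A second deposited table holds p-values and fold changes of the authors' own comparison and was not used. Groups were taken from the genotype in the labels. The platform annotation gave 1 symbol to 22773 clusters, several to 1503 and none to 76899, and 22258 clusters were matched by identifier. A gene was read on the brightest cluster with that symbol alone (2224 genes had several), and the Atg7 cluster with a second symbol was added, which gave 19700 genes. No value was filtered out.

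The difference of cKO minus WT was fitted over all genes with limma 3.58.1 in R 4.3.3 (lmFit and eBayes, two-sided), with Benjamini-Hochberg adjustment over the 19700 genes and a threshold of 0.05. The fit was tested on simulated data. The number of arrays limits the precision. Every listed receptor gene is named, along with Atg7 and, of each partner list, the 4 genes with the lowest p, and Rorb was chosen after its values were seen. The receptor genes, the lists and the marker genes were chosen with earlier results of these data known. Alternatives were another normalization, centring, a filter on dim genes, averaged clusters, other variance moderation, a block on the replicate number, each array left out in turn, and both arrays numbered 1 left out. Leaving out cKO 1 and WT 2 was chosen after seeing the data. Promoter windows are from the RefSeq table of GRCm38.p6.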

Additional observations from a re-analysis of the deposited data

How the results depend on the processing

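With 3 arrays in a group, no receptor gene reached an adjusted p of 0.05 under any of the 15 settings tried, and 15 of the 37 kept the sign of their difference under all of them. These were Gria1, Grik3, Grik4, Grik5, Grin2c, Grm2, Grm4, Grm6, Grm8, Gabra2, Gabra5, Gabrb1, Gabrd, Gabbr1 and Gabbr2. For all values below that moved or turned, the cause was not tested beyond the arrays named.

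Over all genes, 0 of 19700 passed the adjusted threshold of limma, and 780 had an unadjusted p under 0.05. Peg10 alone passed it (1 gene) when the lowest 25% of genes by signal were left out, and likewise (1 gene) when averaged clusters were used, and is named here after its values were seen. The unadjusted count was 1267 without both arrays numbered 1 and 615 to 1510 with 1 array left out, the highest of these without cKO 1. The receptor genes at an unadjusted p under 0.05 were 1 without moderation of the spread, against 3.99% of all genes. With an array left out they were 1 to 2, against 3.12% to 7.66% of all genes. The receptor genes without overlap were 17 without both arrays numbered 1, 9 without cKO 1 and WT 2, and 4 to 13 with an array left out, the highest of these without WT 1. Without WT 1, 12 of the 37 were lower (32.4%) and 1 higher, against 7.49% and 9.19% of all genes. Without cKO 1, 8 were lower (21.6%) and 1 higher, against 17.7% and 9.14%. Over all genes, 6.99% to 17.7% were lower and 7.04% to 10.7% higher without overlap with an array left out. The receptor genes lower in cKO without overlap were 15 without both arrays numbered 1 (40.5%, against 22.7% of all genes). They were 8 without cKO 1 and WT 2 (21.6%, against 25.6%), where the excess over all genes was lost. They were 3 with quantile normalization, with centring and with averaged clusters (8.11%, against 4.36% to 4.77%). The filter on dim genes took out 5 GABA-A genes and moved the median of the class to -0.19, leaving out both arrays numbered 1 moved it to -0.13, and leaving out 1 array gave -0.091 to 0.011. With an array left out, the NMDA median ran from -0.12 to 0.022 and the AMPA median from -0.24 to 0.11.

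With the replicate number as a block, 4 receptor genes had an unadjusted p under 0.05 (Gabra2, Gabrb1, Gabrb2 and Grik3), as did 1157 of all genes (5.87%). The lowest adjusted p of the receptor genes was then 0.749, and all 37 signs stayed. The deviations of same-numbered arrays correlated at 0.31, 0.04 and 0.17 for numbers 1 to 3. The arrays cKO 1 and cKO 3 correlated best with the WT array of the same number, whereas cKO 2 correlated best with WT 3 (0.16). The labels do not say what the numbers stand for, and the main fit has no block. Whether same-numbered arrays share a factor was not tested.

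With averaged clusters the difference of Grm7 was -0.11 and that of Gabra3 -0.019. Without both arrays numbered 1 the sign turned in Gria2 (0.021), Grin2a (0.023), Grin2d (-0.10), Grin3b (-0.039), Gabra3 (-0.057), Gabrq (-0.19) and Gabrr2 (-0.012). Without cKO 1 and WT 2 it turned in Gria2 (0.22), Gria3 (0.17), Gria4 (0.13), Grik2 (0.036), Grin2a (0.094), Grin2b (0.10), Grin2d (-0.15), Grin3b (-0.050), Grm3 (0.066), Grm5 (0.032), Gabra4 (0.089), Gabra6 (0.054), Gabrb2 (0.28), Gabrq (-0.25) and Gabrr1 (-0.056).

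With 1 array left out, the differences ran from -0.31 to 0.17 in Gria2, -0.40 to 0.14 in Gria3, -0.18 to 0.084 in Gria4, -0.052 to 0.10 in Grik1, -0.21 to 0.12 in Grin2a, -0.17 to 0.092 in Grin2b, -0.16 to 0.11 in Grin2d, -0.053 to 0.095 in Grin3b, -0.090 to 0.038 in Grid1, -0.24 to 0.061 in Grm3 and -0.056 to 0.065 in Grm7. Among GABA-A genes they ran from -0.011 to 0.19 in Gabra3, -0.24 to 0.017 in Gabra4, -0.091 to 0.062 in Gabra6, -0.52 to 0.16 in Gabrb2, -0.035 to 0.16 in Gabrg3, -0.11 to 0.083 in Gabre, -0.22 to 0.38 in Gabrq, -0.015 to 0.12 in Gabrr1 and -0.016 to 0.11 in Gabrr2.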
